A study of Homo sapiens with 18 samples.

Results

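The embryoid bodies compared here came from H1 human embryonic stem cells transduced with a lentivirus carrying a KBTBD8 shRNA, or with one carrying a control shRNA. Embryoid bodies are aggregates of stem cells that differentiate once the conditions holding them pluripotent are withdrawn, and these were grown for 6 days in AggreWell plates in APEL medium. The comparison took 2 arrays of KBTBD8 shRNA embryoid bodies, replicates 1 and 3, and 3 arrays of control shRNA embryoid bodies, 5 of the 18 arrays in the series. The other arrays are the KBTBD8 shRNA embryoid bodies numbered 2, embryoid bodies that received no virus (3 arrays), and pluripotent H1 cells with the KBTBD8 shRNA, with the control shRNA or with no virus (3 arrays each). Both shRNA groups therefore share the lentiviral transduction, and the untransduced cells lack it. All cells are 1 established line. The number of hairpins, any selection of transduced cells, and the cultures behind replicate arrays are not given in the sources used here. P-values thus measure only the spread between arrays, which may be technical.

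KBTBD8 is a BTB-Kelch protein that brings substrates to the CUL3 ubiquitin ligase. It is known for marking the nucleolar proteins TCOF1 and NOLC1 with a single ubiquitin, which joins these factors of ribosome production into a complex, and for being needed when human embryonic stem cells form neural crest. The neural crest arises at the border between neural plate and surface ectoderm, loses its epithelial form and gives rise to peripheral neurons, glia, pigment cells and the skeleton of the face. Border cells that do not become crest can become neural plate, cranial placodes or epidermis, a choice in which WNT, FGF, BMP and retinoic acid signals take part.

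Values are log2 intensities from Affymetrix Human Gene 1.0 ST arrays, so a difference of 1 is a 2-fold change. They are compared between samples within a gene, never between genes. Genes with an adjusted p under 0.05 in the limma fit, over 14209 genes tested, are described as rising or falling. After ± stands the standard error of a difference, or the SD of a group mean.

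The labelled states were checked first. The array labelled as KBTBD8 shRNA embryoid bodies, replicate 2, read 4.35 for the neural transcription factor PAX6 and 12.07 for PODXL, a surface sialomucin of pluripotent cells. The pluripotent arrays with the same shRNA, replicates 1 and 3, read 4.42 and 4.49 for PAX6 and 12.10 and 12.16 for PODXL. The array labelled as pluripotent cells with the KBTBD8 shRNA, replicate 2, read 8.90 for PAX6 and 10.35 for PODXL, beside 9.04 and 9.09 for PAX6 and 10.21 and 10.47 for PODXL in KBTBD8 shRNA embryoid bodies 1 and 3. Across the genes tested each of these 2 arrays correlated best with the mean of the other state, while the other 16 arrays correlated best with their own group. Both arrays were left out of the fit. The second one, called the check array below, was set beside the overall counts and some single genes as an array outside the fit. It did count in the filter on low values, which asked for a value over the 40th percentile of its array on 3 or more of the 18 arrays. Of the genes tested, 67 passed only with the arrays left out, 4 of them called, so for those the check array is not outside the choice of genes.

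**Figure D1:**
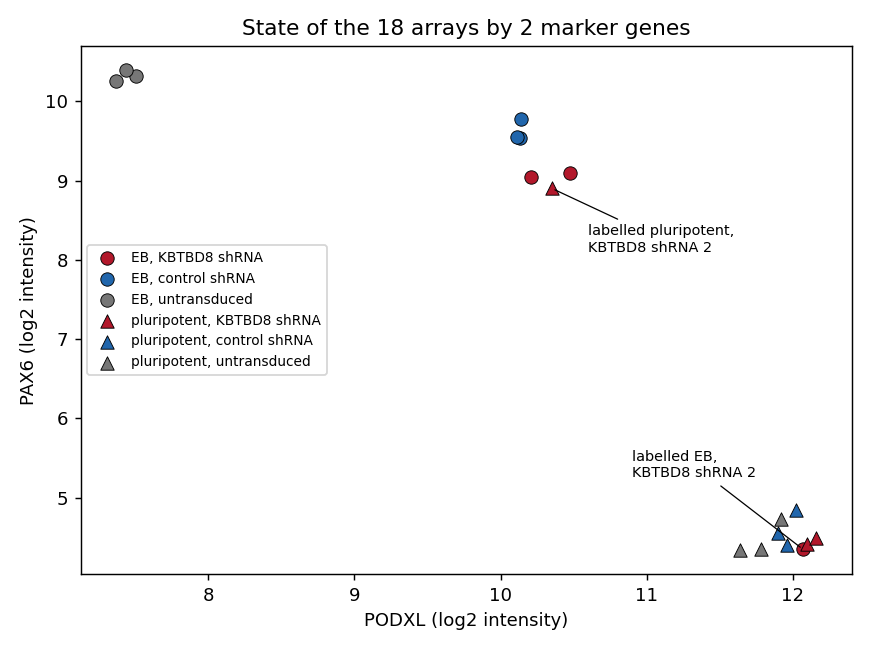
PAX6 against PODXL, both as log2 intensity, with 1 point for each of the 18 arrays, circles for arrays labelled embryoid bodies and triangles for arrays labelled pluripotent. The 2 arrays numbered 2 of the KBTBD8 shRNA, marked with lines, lie with the state opposite to their labels.

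KBTBD8 itself did not pass the threshold between the embryoid bodies. Its log2 level was 4.86 and 4.66 with the KBTBD8 shRNA, 4.55 on the check array, and 4.43, 4.79 and 5.04 with the control shRNA. The groups overlapped, and the difference was 0.01 ± 0.26 (limma adjusted p = 0.998, exact permutation p = 1 over 10 splits, whose smallest two-sided p is 0.2). KBTBD8 lay low on these arrays, from the 27.7 to the 29.2 percentile with the KBTBD8 shRNA and from the 23.6 percentile upward with the control shRNA. In pluripotent cells, where control shRNA arrays averaged 6.84, KBTBD8 fell by 1.79 with its shRNA (adjusted p = 0.00028). The reading in embryoid bodies is therefore no check of the knockdown there. The transcripts of its substrates did not pass the threshold. TCOF1 read 8.05 and 8.04 with the KBTBD8 shRNA against 7.96, 8.0 and 8.01 with the control shRNA, and NOLC1 read 9.37 and 9.41 against 9.41, 9.33 and 9.34 (adjusted p = 0.86 and 0.94).

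Over all genes 824 passed the threshold, 5.8% of those tested. Of these, 404 (2.84%) were higher and 420 (2.96%) lower with the KBTBD8 shRNA, and 54 and 79 of them by 2-fold or more. An unadjusted p under 0.05 was reached by 2296 genes, and the median difference over all genes tested was 0.00418. The 2 and 3 arrays did not overlap for any of the 824. That condition alone was met by 16.9% of genes tested in the higher and 18.2% in the lower direction. Where it is met, leaving out 1 of the 5 arrays cannot turn the direction of a gene. On the check array, 389 of the 404 genes that rose (96.3%) lay above all 3 control shRNA arrays, as did 28.6% of all genes. Of the 420 that fell, 411 (97.9%) lay below all 3, as did 44.6% of all genes. Over genes that pass the filter on the 16 arrays of the fit, these counts were 385 of 400 (96.2%) and 411 of 420 (97.9%). The control shRNA arrays in these counts are those that chose the genes, so only the check array lies outside the fit. Leaving out 1 of the 5 arrays lowered the count to between 451 and 619 genes, and all 824 kept their direction each time.

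The deposited values carry no detection call, so a low reading is not shown to be above background. Of the 404 genes that rose, 36 (8.91%) read no higher than the 40th percentile on all 3 control shRNA arrays, and of the 420 that fell, 64 (15.2%) did so on both KBTBD8 shRNA arrays. Among the 15 largest rises and the 15 largest falls these are HPGD, ADAM28 and HESX1 (3 rises) and NPR3, AFP, TTR, SCUBE2, MEF2C, ITGA4, NOS2 and RFX4 (8 falls). Their fitted differences are against a level that may be background, and their sizes are not exact. HPGD, ADAM28, NPR3, MEF2C and RFX4 passed the filter on 3 arrays only, those of the group where they are high and, for HPGD and ADAM28, the check array, so they had to differ.

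Neural crest genes were lower with the KBTBD8 shRNA, among them SNAI2 and ETS1, given as markers of the comparison with NPR3, SIX3 and ETV5, which are described further on. SNAI2 (Slug) is a zinc finger repressor that drives the loss of epithelial form in crest cells. It read 8.53 and 8.88 with the KBTBD8 shRNA, against 11.28, 11.28 and 11.12 with the control shRNA, and 8.72 on the check array. SNAI2 fell by 2.52 ± 0.12, a 5.75-fold difference (adjusted p = 2.6e-09). ETS1, a transcription factor that in chick embryos takes part in the departure of cranial crest from the neural tube, read 6.00 and 6.00 against 9.31, 9.14 and 9.12, and 6.21 on the check array. It fell by 3.19 ± 0.12, or 9.12-fold (adjusted p = 2.0e-10). In both genes the KBTBD8 shRNA arrays lay more than 2 log2 units below every control shRNA array. The untransduced embryoid bodies lay lower still, at 7.25 ± 0.12 for SNAI2 and 5.12 ± 0.14 for ETS1 (SD, n = 3).

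**Figure D2:**
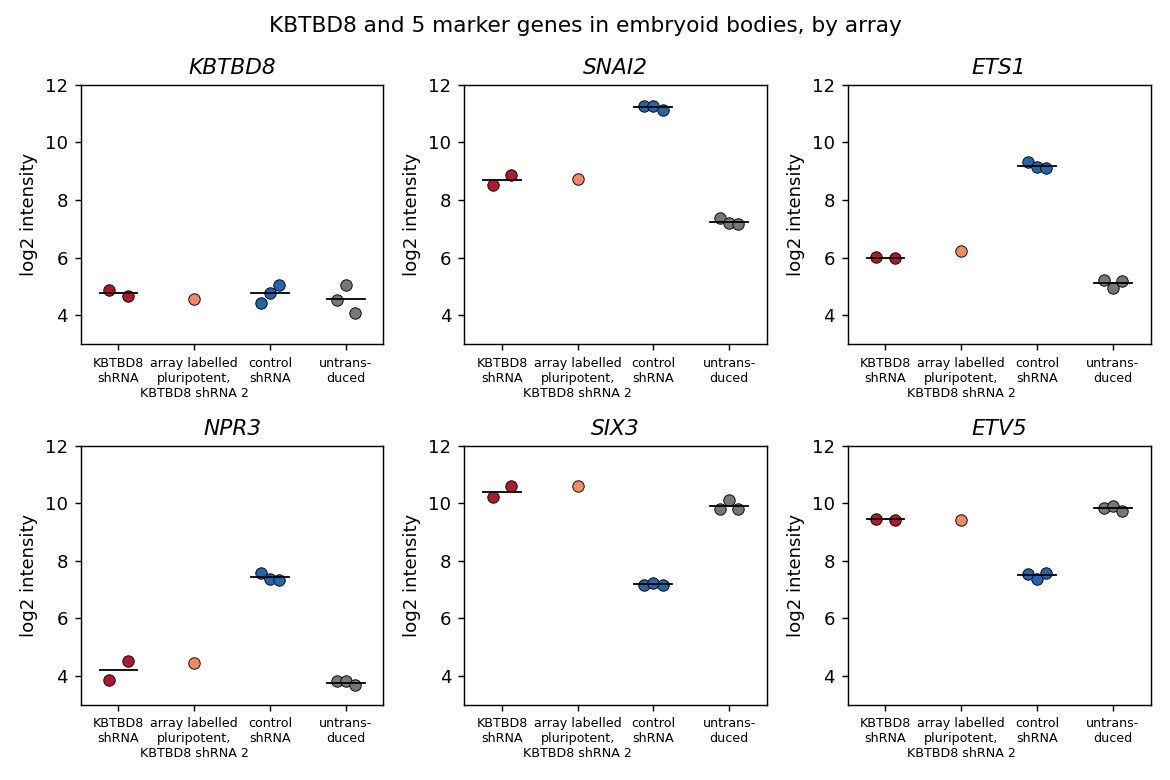
Log2 intensity of KBTBD8 and the 5 markers in embryoid bodies, with 1 point per array and a line at each group mean, for the KBTBD8 shRNA, the check array, the control shRNA and no virus. KBTBD8 overlaps between the groups, whereas SNAI2, ETS1 and NPR3 are lower and SIX3 and ETV5 higher on the KBTBD8 shRNA arrays than on every control shRNA array.

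The neural crest list held 27 tested genes, of which 13 fell and 1 rose, with a median difference of −0.42. Its mean level per array was 7.16 to 7.27 with the KBTBD8 shRNA, 7.97 to 7.99 with the control shRNA and 6.42 to 6.48 without virus. The genes that fell span the border, the specified crest and its lineages. TFAP2B, which encodes an AP-2 factor of early crest, read 8.35 and 8.96 against 10.89, 10.76 and 10.72 and fell by 2.14 ± 0.21 (adjusted p = 7.6e-06). PAX3, a neural plate border factor, read 7.34 and 7.58 against 9.41, 9.44 and 9.37 and fell by 1.95 ± 0.12 (adjusted p = 5.7e-08). On both genes the check array, at 8.36 and 7.36, lay with the KBTBD8 shRNA arrays. FOXD3, a forkhead repressor found in premigratory crest, read 5.20 and 5.01 against 6.65, 6.67 and 6.41 and fell by 1.48 ± 0.16 (adjusted p = 1.4e-05). SOX10, which maintains migrating crest and its glial and pigment lineages, read 6.75 and 6.84 against 8.13, 8.40 and 8.21 and fell by 1.45 ± 0.10 (adjusted p = 1.3e-07). TFAP2A, whose product acts at the border and in surface ectoderm, differed less, at 8.72 and 8.95 against 9.63, 9.79 and 9.65, and fell by 0.86 ± 0.19 (adjusted p = 0.0093), a call lost without KBTBD8 shRNA replicate 1.

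Crest receptors fell with the transcription factors. The integrin subunit ITGA4, with which crest cells bind fibronectin, read 5.31 and 5.38 with the KBTBD8 shRNA against 7.88, 7.81 and 7.76 with the control shRNA, a fall of 2.47 ± 0.13 (adjusted p = 4.9e-09). The neuregulin receptor ERBB3, used by crest and Schwann cell precursors, had a log2 difference of −1.15, the endothelin receptor EDNRB of −1.05 and the neurotrophin receptor NGFR of −0.55. ZEB2, a repressor whose loss in people causes Mowat-Wilson syndrome with crest defects, fell by 1.14, and the cadherin CDH6 by 0.47. The border factor ZIC1 was the exception that rose, at 6.57 and 6.60 against 5.92, 5.98 and 6.16 (0.57 ± 0.15, adjusted p = 0.039). The 13 members that did not pass the threshold had differences between −0.42 and 0.35. CDH6 lost its call without any 1 of the 5 arrays, ZIC1 without any but control shRNA replicate 3, and NGFR without KBTBD8 shRNA replicate 1 or control shRNA replicate 2 or 3. Among the members that did not pass, the border gene PAX7 differed by −0.37 and SOX9, used in crest and in cartilage, by −0.15. The 10 largest falls in the list, from ETS1 to EDNRB, were each 2-fold or more.

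Of 15 tested genes of crest mesenchyme and the facial skeleton, 2 fell and none rose, with a median of −0.00473. NR2F1 (COUP-TFI), a nuclear receptor of crest and forebrain, read 6.75 and 6.46 against 8.84, 9.26 and 9.21 and fell by 2.50 ± 0.16 (adjusted p = 7.6e-08). Here the untransduced embryoid bodies, at 8.99 ± 0.09 (SD, n = 3), lay with the control shRNA ones. The PDGF receptor PDGFRA fell by 1.25 ± 0.17, at 5.82 and 5.99 against 7.13, 7.0 and 7.33. Across 20 genes of mesenchyme and matrix 4 fell and 1 rose. The intermediate filament gene VIM fell by 1.00, the collagen chains COL1A2 by 0.97 and COL3A1 by 0.70, and the neural cadherin CDH2 by 0.44, while the matrix protein gene TNC rose by 0.79. Without KBTBD8 shRNA replicate 3 the calls of TNC, COL3A1 and CDH2 were lost, that of CDH2 also without any other of the 5 arrays.

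Of the epithelial neighbours of the crest, 12 of 24 tested genes of placodes and surface ectoderm rose and 1 fell, with a median of 0.43. The list averaged 8.11 to 8.26 on KBTBD8 shRNA arrays, 7.71 to 7.75 on control shRNA arrays and 6.52 to 6.74 without virus. DLX5, a homeobox gene of the anterior border and the placodes, read 9.85 and 10.12 with the KBTBD8 shRNA against 7.95, 7.51 and 7.85 with the control shRNA, and 10.24 on the check array. It rose by 2.22 ± 0.14, or 4.66-fold (adjusted p = 7.2e-08). DLX6, its neighbour and partner in a bigene cluster, rose by 0.75. The epithelial factors GRHL2 and GATA3 rose by 1.05 and 0.99, the epithelial GTPase RAB25 by 0.92 and the keratin KRT18 by 0.63. Epithelial cadherin CDH1 read 10.53 and 10.58 against 9.83, 9.84 and 9.81 and rose by 0.72 ± 0.15 (adjusted p = 0.006). Untransduced embryoid bodies held far less CDH1 signal, 6.35 ± 0.35 (SD, n = 3). The placode genes EYA1 and EYA4 went opposite ways, by 0.71 and −1.26. Without KBTBD8 shRNA replicate 3 the list had 7 calls in place of 13, with CDH1, KRT18 and EYA4 among those lost.

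PAX8, a paired box gene of the otic placode, kidney and thyroid, was also among the 15 largest rises. It read 7.50 and 7.92 with the KBTBD8 shRNA against 5.87, 6.09 and 5.91 with the control shRNA, a difference of 1.76 ± 0.15 (adjusted p = 1.2e-06). Cadherins, which sort crest, neural and epithelial cells from each other, divided. Of 14 tested, 3 rose and 5 fell. Beside CDH1, the placental cadherin CDH3 rose by 0.70 and CDH10 by 1.20. CDH9 had the largest fall of the family, at 6.20 and 6.40 against 8.24, 8.30 and 8.27 (−1.97 ± 0.19, adjusted p = 4.6e-06), followed by CDH8, CDH18, CDH6 and CDH2. Leaving out 1 array at a time gave 4 or 5 calls in place of 8. CDH8, CDH6 and CDH2 lost theirs each time, CDH18 without KBTBD8 shRNA replicate 1 and CDH1 without KBTBD8 shRNA replicate 3. CDH9 read only 3.97 ± 0.09 in untransduced embryoid bodies (SD, n = 3).

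**Figure D3:**
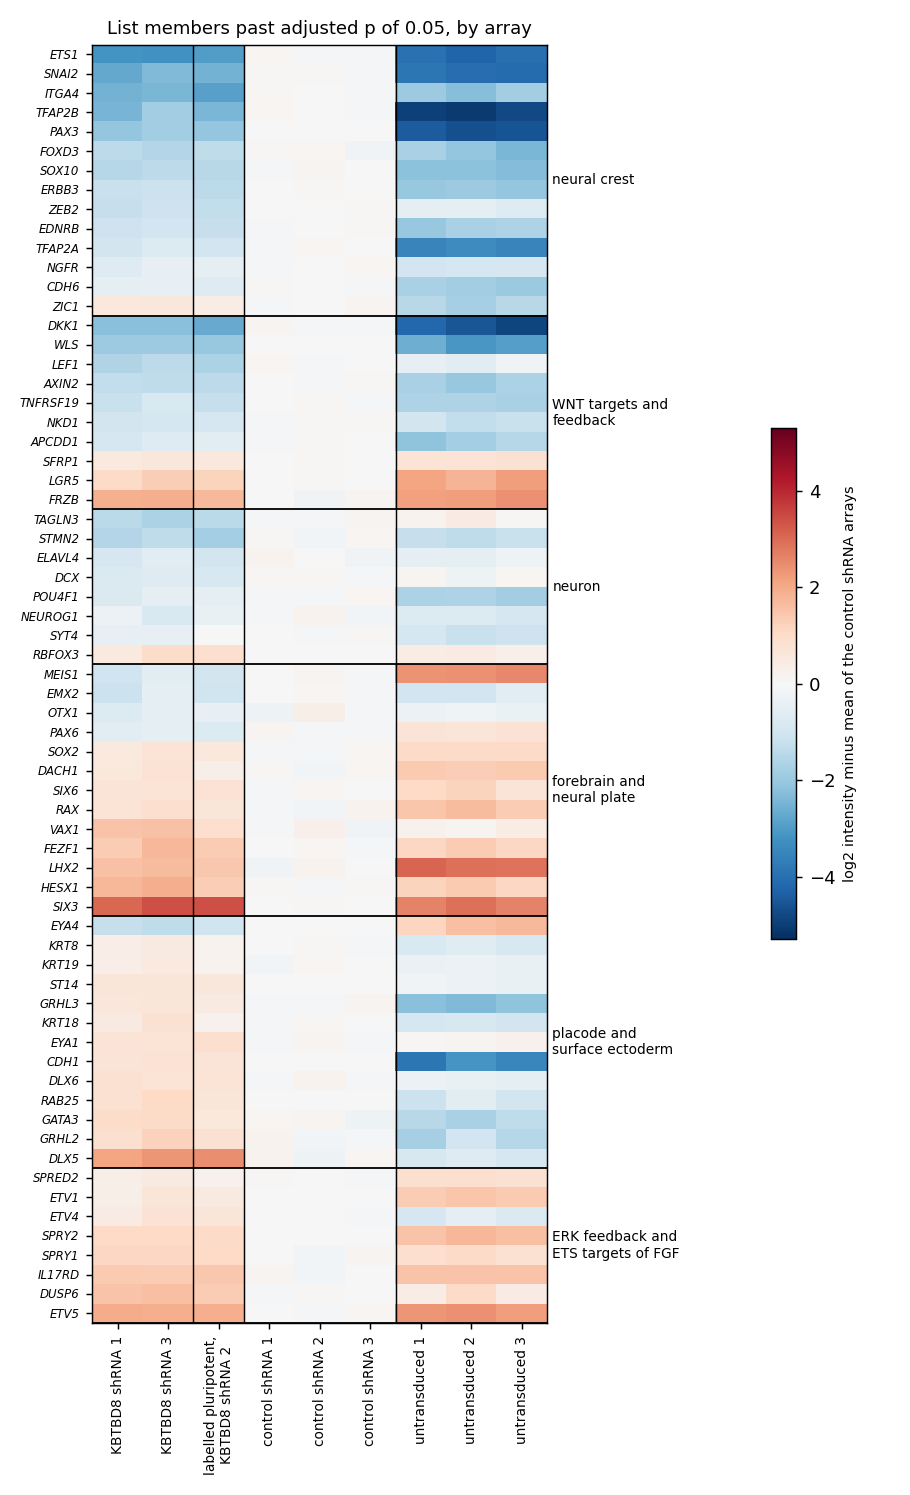
Members of 6 lists past an adjusted p of 0.05 (rows) on each embryoid body array (columns), coloured by log2 intensity minus the mean of the control shRNA arrays. The check array has the colours of the KBTBD8 shRNA arrays, and the untransduced arrays share the blue of the crest rows but not the red of most placode and surface ectoderm rows.

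The forebrain and neural plate list, with 34 tested genes, held 9 rises and 4 falls around a median of 0.03. By the choice of the list, the genes that rose and those that fell are all genes of forebrain or neural plate. SIX3, a homeobox repressor of WNT signalling in the anterior forebrain, read 10.23 and 10.59 with the KBTBD8 shRNA against 7.14, 7.24 and 7.16 with the control shRNA, and 10.58 on the check array. Its rise of 3.23 ± 0.15, or 9.35-fold (adjusted p = 2.6e-09), was the largest of all genes tested. HESX1, needed for forebrain and pituitary, read 6.43 and 6.61 against 4.71, 4.55 and 4.75 and rose by 1.85 ± 0.18 (adjusted p = 6.7e-06). LHX2, a LIM homeobox gene of eye field and cortex, read 8.28 and 8.43 against 6.56, 6.92 and 6.72 and rose by 1.62 ± 0.17 (adjusted p = 1.5e-05). FEZF1, a zinc finger gene of the forebrain, read 9.95 and 10.35 against 8.62, 8.70 and 8.51, and VAX1, a homeobox gene of the ventral forebrain and optic stalk, read 6.84 and 6.89 against 5.26, 5.61 and 5.15. Their differences were 1.54 and 1.52. Smaller rises were those of the eye field gene RAX (0.81), SIX6 (0.70), DACH1 (0.67) and SOX2 (0.63). RAX lost its call without KBTBD8 shRNA replicate 3.

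Not all genes of the list followed. PAX6, a gene of neural plate and eye, read 9.04 and 9.09 with the KBTBD8 shRNA against 9.77, 9.53 and 9.55 with the control shRNA and fell by 0.55 ± 0.13 (adjusted p = 0.02). EMX2 fell by 0.80, OTX1 by 0.61 and MEIS1 by 0.82. PAX6 lost its call without KBTBD8 shRNA replicate 1 or 3 or control shRNA replicate 1, EMX2 without KBTBD8 shRNA replicate 1 or any control shRNA array, and OTX1 without either KBTBD8 shRNA array or control shRNA replicate 2 or 3. The 21 members that did not pass had differences between −0.65 and 0.35. Untransduced embryoid bodies had SIX3 at 9.90 ± 0.18 and LHX2 at 9.70 ± 0.12 (SD, n = 3). For SIX3 they lay below both KBTBD8 shRNA arrays (KBTBD8 shRNA minus untransduced 0.50, limma adjusted p = 0.015) and well above the control shRNA arrays, and for LHX2 above both shRNA groups.

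Of 22 tested genes of young neurons, 7 fell, 1 rose and 14 did not pass, with a median of −0.33. TAGLN3, a neuronal calponin relative, read 6.18 and 5.93 against 7.54, 7.56 and 7.74 and fell by 1.56 ± 0.14 (adjusted p = 2.8e-06). STMN2, which regulates microtubules in growing axons, read 6.51 and 6.73 against 8.11, 7.90 and 8.15 and fell by 1.44 ± 0.16 (adjusted p = 2.8e-05). The RNA-binding protein gene ELAVL4 fell by 0.74 and doublecortin (DCX) by 0.72. POU4F1 and NEUROG1, which encode factors of peripheral sensory neurons, fell by 0.63 and 0.56. RBFOX3 (NeuN), a marker of mature neurons, rose by 0.75. The count was 5 without either KBTBD8 shRNA array. POU4F1 lost its call without KBTBD8 shRNA replicate 1, ELAVL4 without that array or control shRNA replicate 1, NEUROG1 without KBTBD8 shRNA replicate 3 or control shRNA replicate 2, and RBFOX3 without KBTBD8 shRNA replicate 3.

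Signalling genes were read by pathway. In the fibroblast growth factor pathway, ligands bind receptor tyrosine kinases, ERK is activated and ERK induces both ETS transcription factors and its own inhibitors. Of 23 tested genes of ERK feedback and ETS targets, 8 rose and none fell, with a median of 0.17. ETV5, an ETS factor induced by FGF, read 9.45 and 9.43 with the KBTBD8 shRNA against 7.53, 7.38 and 7.58 with the control shRNA, and 9.43 on the check array. ETV5 rose by 1.94 ± 0.14, or 3.84-fold (adjusted p = 2.3e-07). The ERK phosphatase gene DUSP6 read 8.22 and 8.32 against 6.61, 6.78 and 6.74 and rose by 1.56 ± 0.15 (adjusted p = 4.6e-06). IL17RD (SEF), a membrane inhibitor of FGF signalling, read 8.54 and 8.47 against 7.28, 6.97 and 7.15 and rose by 1.37. The Sprouty inhibitors SPRY1 and SPRY2 rose by 1.10 and 1.07. The ETS genes ETV4 and ETV1 rose by 0.60 and 0.46, and the inhibitor SPRED2 by 0.40. The groups did not overlap in any of these 8 genes, as in all 824 genes called. The other 15 members, with differences between −0.32 and 0.35, include immediate early genes such as MYC (0.35) and the cyclin gene CCND1 (−0.32). Without KBTBD8 shRNA replicate 3 the count was 5, with ETV1, ETV4 and SPRED2 lost. ETV1 also lost its call without control shRNA replicate 1, and SPRED2 without control shRNA replicate 3.

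Among 23 tested FGF ligands, receptors and partners 1 rose and 1 fell. The ligand FGF8, secreted at the anterior neural ridge and the midbrain border, read 6.80 and 6.97 against 5.39, 5.69 and 5.67 and rose by 1.30 ± 0.13 (adjusted p = 5.7e-06). The receptor FGFR2 read 8.47 and 8.43 against 9.15, 9.05 and 9.16 and fell by 0.67 ± 0.11 (adjusted p = 0.0014). FGF9, at 5.93 and 5.74 against 5.29, 5.38 and 5.40, did not pass (0.47, adjusted p = 0.13), and the receptor FGFR1 differed by 0.34. Untransduced embryoid bodies read 9.82 ± 0.09 for ETV5 and 7.37 ± 0.11 for FGF8 (SD, n = 3), above both shRNA groups.

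WNT proteins stabilise beta-catenin, which binds TCF and LEF factors at target genes, and several targets are themselves inhibitors of the pathway. Of 19 tested WNT targets and feedback genes 7 fell and 3 rose, with a median of −0.27. DKK1, a secreted inhibitor that is itself a WNT target, read 5.79 and 5.78 with the KBTBD8 shRNA against 8.14, 7.90 and 7.91 with the control shRNA and fell by 2.20 ± 0.16 (adjusted p = 2.4e-07). WLS, the carrier that WNT proteins need to leave the cell, read 9.26 and 9.24 against 11.19, 11.13 and 11.19 and fell by 1.92 ± 0.13 (adjusted p = 7.7e-08). The nuclear effector LEF1 read 6.92 and 7.10 against 8.63, 8.42 and 8.48 (−1.50), and AXIN2, a negative regulator widely used as a readout of the pathway, read 7.43 and 7.41 against 8.74, 8.70 and 8.79 (−1.32). TNFRSF19 fell by 1.00 and the inhibitors NKD1 and APCDD1 by 0.94 and 0.80. In each of these genes the KBTBD8 shRNA arrays lay below every control shRNA array, as in every gene called lower.

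The 3 rises in this list were the secreted WNT antagonists FRZB (1.91 ± 0.23, adjusted p = 5.2e-05) and SFRP1 (0.56) and the R-spondin receptor LGR5 (1.17). FRZB read 9.80 and 9.84 with the KBTBD8 shRNA against 7.95, 7.72 and 8.08 with the control shRNA. The receptor FZD5, which is used in the eye field and was not in the list, read 10.32 and 10.37 against 8.27, 8.33 and 8.38 and rose by 2.01 ± 0.11 (adjusted p = 1.4e-08). Untransduced embryoid bodies read 10.18 ± 0.13 for FRZB, 10.22 ± 0.03 for FZD5, 3.48 ± 0.36 for DKK1 and 6.95 ± 0.19 for AXIN2 (SD, n = 3). For these 4 genes they lay nearer to the KBTBD8 shRNA mean than to the control shRNA mean.

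The promoter of DKK1, the WNT list member with the largest fall, is shown for its matches to the letters CTTTGA, the core bound by TCF and LEF factors. It covers the 250 bases before the start on chr10:52314031-52314280, plus strand, RefSeq GRCh38.p14, with the matches on either strand in capitals, 149 and 95 bases before the start.
DKK1 promoter: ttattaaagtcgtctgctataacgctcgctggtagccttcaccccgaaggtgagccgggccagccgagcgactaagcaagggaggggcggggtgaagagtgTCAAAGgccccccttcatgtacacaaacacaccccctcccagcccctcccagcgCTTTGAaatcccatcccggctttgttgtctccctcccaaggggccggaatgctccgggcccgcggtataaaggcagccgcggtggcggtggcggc
Of the 7 WNT genes that fell, 5 had a promoter in the RefSeq table and 1, DKK1, held these letters, as did 7.83% of 11255 promoters of genes tested and 11.2% of all 35116. The letters CCGGAAG, the core bound by ETS factors, stood on either strand in 0 of the 6 matched promoters of the ERK feedback genes that rose, and in 14.3% of those of genes tested. These counts describe letters in a window and no binding was measured.

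BMP, NODAL, NOTCH and retinoic acid genes moved in both directions except in the NODAL list. Among all genes tested the shares were 2.84% higher and 2.96% lower. Of 18 BMP targets and antagonists 2 rose and 3 fell. The BMP target ID1 rose by 0.55 and the ligand BMP5 fell by 0.86. Of 11 NODAL pathway genes 3 rose, led by the co-receptor CRIPTO (TDGF1), which read 6.83 and 6.99 with the KBTBD8 shRNA against 5.40, 5.72 and 5.57 with the control shRNA (1.35 ± 0.19, adjusted p = 0.00023), with GDF3 at 0.69. In the NOTCH list of 19, the ligand JAG1 fell by 0.77 and the target HES1 rose by 0.73, with 2 rises and 3 falls in all. In the retinoic acid list of 11, the degrading enzyme CYP26A1 rose by 0.96 and the retinol transporter STRA6 fell by 1.06, with 3 rises and 2 falls. Of 6 tested HOX genes none passed. Leaving out 1 array at a time lowered these counts to as few as 1 in the BMP list, 1 in the NODAL list, 2 in the NOTCH list (without KBTBD8 shRNA replicate 3) and 3 in the retinoic acid list (without KBTBD8 shRNA replicate 1). GDF3 lost its call without any 1 of the 5 arrays, ID1 without any but control shRNA replicate 3, BMP5 without KBTBD8 shRNA replicate 1 and HES1 without KBTBD8 shRNA replicate 3.

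NPR3, the receptor that clears natriuretic peptides, and ETS1 had the largest fitted falls of all genes tested. NPR3 read 3.87 and 4.52 with the KBTBD8 shRNA against 7.56, 7.38 and 7.33 with the control shRNA, and 4.43 on the check array. The KBTBD8 shRNA readings lay at the 15.8 and 25.5 percentiles of their arrays, a level not shown to be above background, and the fitted difference was −3.23 ± 0.15 (adjusted p = 2.6e-09). NPR3 passed the filter only on the control shRNA arrays, so it had to differ. The other NPR3 probe set differed by −3.34. Untransduced embryoid bodies read 3.77 ± 0.07 (SD, n = 3). NPR1, the receptor that signals for the cardiac peptides through cyclic GMP, moved the other way, at 6.86 and 7.02 against 5.56, 5.87 and 5.28 (1.37 ± 0.14, adjusted p = 1.2e-05). The other 4 tested members of this family of peptides, receptors and a processing protease differed by −0.04 to 0.18.

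Markers of other germ layers were read for cells an embryoid body can also hold. Endoderm and yolk sac genes fell in 7 of 17 tested and rose in 2, with a median of −0.40, and the list averaged 6.00 to 6.15 with the KBTBD8 shRNA, 6.67 to 6.69 with the control shRNA and 5.54 to 5.55 without virus. The yolk sac and liver secreted proteins led. AFP (alpha-fetoprotein) read 4.85 and 4.23 against 7.65, 7.11 and 7.24, APOA2 read 5.32 and 5.74 against 8.16, 8.14 and 8.31, and TTR (transthyretin) read 5.49 and 5.25 against 8.11, 7.83 and 7.97. They fell by 2.79, 2.67 and 2.60. The endoderm factors SOX17 and FOXA2, which define the lineage, did not pass, at 0.10 and 0.05. HHEX, a factor of anterior endoderm, rose by 0.59. The part of these cells in the crest and neural results was not tested, and in bulk RNA fewer cells of a type and less RNA per cell cannot be told apart.

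In the small lists of mesoderm and blood few genes were called. Over all genes tested 2.84% rose and 2.96% fell, so 1 or 2 calls in such lists are not below that share. Of 18 primitive streak genes FGF8 alone rose, of 14 genes of endothelium and blood VWF alone rose, by 0.58, and of 5 trophoblast and amnion genes none passed. In lateral and cardiac mesoderm 2 of 12 fell. MEF2C, a factor of heart, crest and neurons, read 5.0 and 4.57 with the KBTBD8 shRNA against 7.36, 7.29 and 7.27 with the control shRNA. It fell by 2.52 ± 0.18 (limma adjusted p = 1.5e-07). MEF2C passed the filter only on the control shRNA arrays, so it had to differ. Of 28 pluripotency genes 6 rose and 1 fell. CRIPTO and USP44, a deubiquitinase of stem cells, rose by 1.35 and 0.88. PODXL did not pass, at 10.21 and 10.47 against 10.14, 10.13 and 10.11 (0.21, adjusted p = 0.30). The list averaged 8.15 to 8.23 with the KBTBD8 shRNA and 7.96 to 7.99 with the control shRNA. Its calls numbered 3 without KBTBD8 shRNA replicate 3 and 4 without KBTBD8 shRNA replicate 1 or control shRNA replicate 2 or 3. VWF lost its call when any of the 5 arrays was left out.

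**Figure D4:**
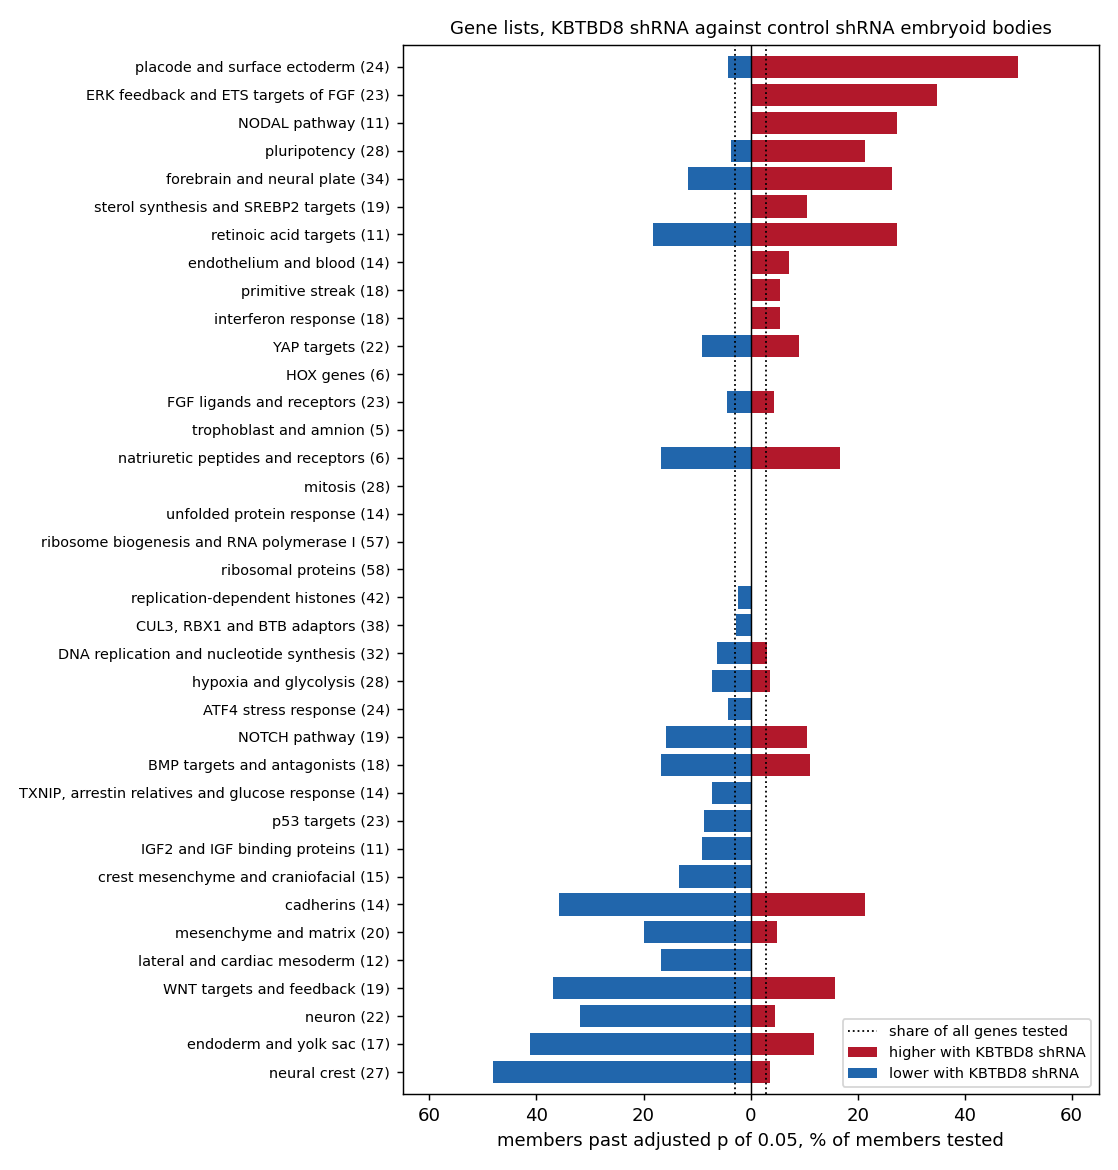
Share of the tested members of each gene list past an adjusted p of 0.05, higher with the KBTBD8 shRNA to the right and lower to the left, with the number tested in parentheses and dotted lines at the shares over all genes tested (2.84% and 2.96%). Neural crest has the longest bar to the left and placode and surface ectoderm the longest to the right, while ribosome lists show none.

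Genes of the ribosome, of which KBTBD8 substrates are production factors, stayed within a narrow range. Of 57 tested genes of ribosome biogenesis and RNA polymerase I none passed, with differences between −0.19 and 0.20, and of 58 ribosomal protein genes none passed, between −0.09 and 0.19. The lists' medians were 0.01 and 0.04. In the list of CUL3, RBX1 and BTB adaptors 1 of 38 passed, RHOBTB3, which fell by 0.74. In 23 p53 targets 2 fell, among them PLK2 by 0.83, and in 28 mitotic genes none passed. Of 32 genes of replication and nucleotide synthesis 1 rose and 2 fell. Beside these counts, 2.84% of all genes tested rose and 2.96% fell. At that share lists of this size hold only a few calls or none. No p53 target and no replication gene passed without KBTBD8 shRNA replicate 3. The arrays measure transcripts, so ubiquitylation and translation are outside their reach.

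The remaining largest rises were in genes outside these lists. HPGD, which inactivates prostaglandins, read 5.79 and 6.34 against 3.96, 4.04 and 3.61 (2.19 ± 0.22, adjusted p = 7.9e-06), with the control shRNA arrays no higher than the 18.1 percentile. The metalloprotease gene ADAM28 read 7.18 and 7.12 against 5.01, 4.93 and 5.08 (2.14 ± 0.13, adjusted p = 3.6e-08). SLITRK1, a neuronal adhesion protein gene, read 9.90 and 9.83 against 7.79, 7.89 and 7.81 (2.03 ± 0.14, adjusted p = 1.3e-07). For MECOM, a zinc finger transcription factor gene, the probe set used differed by 2.02 and the other by 0.62. In each of these genes the KBTBD8 shRNA arrays lay above every control shRNA array, which the choice of the largest rises required. HPGD and ADAM28 passed the filter only through the KBTBD8 shRNA arrays and the check array, so they had to differ.

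Among the remaining largest falls, SCUBE2, a secreted protein that helps release hedgehog ligands, read 5.02 and 4.98 against 7.39, 7.47 and 7.92 (−2.60 ± 0.21, adjusted p = 8.1e-07). The matrix proteoglycan gene PRELP differed by −2.48, NRIP3 by −2.46, NOS2, the inducible nitric oxide synthase gene, by −2.38, SCRG1 by −2.28 and RFX4, a transcription factor of the developing brain, by −2.26. NRIP3 read 5.88 and 5.92 against 8.37, 8.34 and 8.37. In these 6 genes, too, the groups did not overlap, which the choice of the largest falls required. RFX4 passed the filter only on the control shRNA arrays, so it had to differ.

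Because both shRNA groups carry the virus, the untransduced embryoid bodies show where the control shRNA arrays lay. The control shRNA arrays differed from the untransduced ones in more genes than the knockdown did, with 24.6% of genes tested higher and 20.2% lower. These were 3493 and 2877 genes. The KBTBD8 shRNA arrays, 2 in number, differed from the untransduced ones about as widely, with 3202 genes higher and 2640 lower. In the crest list the median difference of control shRNA minus untransduced was 1.57, in endoderm and yolk sac 1.09 and in placode and surface ectoderm 0.90. The untransduced mean lay nearer to the KBTBD8 shRNA mean than to the control shRNA mean in 12 of the 15 largest falls and 8 of the 15 largest rises. It lay between the 2 shRNA means in 7 of the falls and 9 of the rises. The knockdown and the control shRNA minus untransduced comparison share the control shRNA arrays, so their differences are not independent. The genes counted were chosen for their difference between the shRNA groups, and the same share over all genes was not counted. Across all genes tested the untransduced arrays correlated almost equally with the means of both shRNA groups. The values were 0.9496, 0.9545 and 0.9485 with the control shRNA and 0.9504, 0.9549 and 0.9486 with the KBTBD8 shRNA. Whether the control shRNA, the virus or the culture lies behind the distance from untransduced cells was not tested.

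The knockdown difference in embryoid bodies was also set against that in pluripotent cells, as an interaction in the same fit with pluripotent KBTBD8 shRNA replicates 1 and 3. It passed for 1402 genes (9.87%), 532 more positive and 870 more negative in embryoid bodies. SNAI2 differed by −0.09 in pluripotent cells and its interaction was −2.43 (adjusted p = 4.7e-07). SIX3 differed there by −0.04, with an interaction of 3.27 (adjusted p = 2.8e-07). In pluripotent cells with the control shRNA their levels were 6.82 and 5.42. ETS1 read 8.02 in those cells and differed by −0.31 (adjusted p = 0.091), with an interaction of −2.87 (adjusted p = 9.4e-08). ETV5, at 8.66 there, rose in pluripotent cells too, by 0.79 (adjusted p = 0.0018), and its interaction was 1.16. In the crest list 12 interactions were negative and 1 positive, and in the placode and surface ectoderm list 2 and 11.

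**Figure D5:**
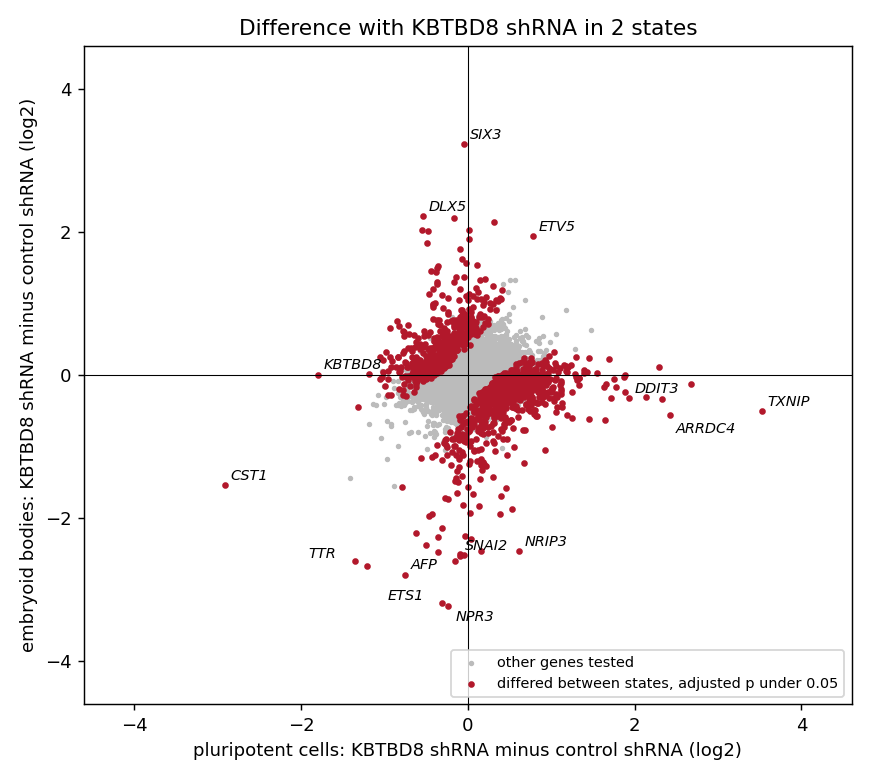
Log2 difference of KBTBD8 shRNA minus control shRNA in embryoid bodies (vertical) against that in pluripotent cells (horizontal), 1 point per gene, red where the interaction passed an adjusted p of 0.05. SIX3, NPR3, ETS1 and SNAI2 lie near 0 on the horizontal axis and TXNIP and ARRDC4 far to the right, near 0 on the vertical axis.

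The 5 largest negative interactions were those of TXNIP, NRIP3, NPR3, ARRDC4 and ETS1. For NRIP3, NPR3 and ETS1 the larger part was the difference in embryoid bodies, and for TXNIP and ARRDC4 the one in pluripotent cells. TXNIP, a glucose-responsive arrestin relative that inhibits thioredoxin, read 10.08 and 9.93 in KBTBD8 shRNA embryoid bodies against 10.48, 10.50 and 10.54 in control shRNA ones (−0.50, adjusted p = 0.17). In pluripotent cells it rose by 3.53, and the interaction was −4.03 (adjusted p = 2.8e-07). ARRDC4, its close relative, fell by 0.56 in embryoid bodies and rose by 2.43 in pluripotent cells (interaction −2.99). Over all 14209 genes tested, 1198 rose and 793 fell in pluripotent cells. Of 24 targets of the ATF4 stress response 21 rose in pluripotent cells, with a median of 0.93. In embryoid bodies 1 of these targets fell, and their median was −0.13. The interaction passed for 18 of them, all negative. SLC7A11, the cystine transporter, rose by 1.65 in pluripotent cells and fell by 0.63 in embryoid bodies. Of 19 sterol synthesis genes 11 fell in pluripotent cells and 2 rose in embryoid bodies, the interaction being positive for 13. HMGCS1, the synthase that feeds this pathway, differed by −0.78 in pluripotent cells and by 0.31 in embryoid bodies. HMGCS1 lost its call in embryoid bodies without any 1 of the 5 arrays, and SLC7A11 and ARRDC4 lost theirs without KBTBD8 shRNA replicate 1.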

How the data were processed

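The 18 arrays are Affymetrix Human Gene 1.0 ST arrays of total RNA. The authors summarised them with GCRMA, as the submitters' processing notes name it, and deposited log2 intensities from 1.54 to 13.9. No source states the base, which follows from the method and this range. Array medians of the 5 arrays compared were 6.02 to 6.10, and the number of arrays limits the precision. Of 33297 probe sets 19460 carried 1 gene symbol, 1754 several and 12083 none. Symbols were updated through RefSeq GRCh38.p14, and the probe set with the highest mean stood for each of 18417 genes. Genes exceeding the 40th percentile of an array's values in 3 or more of the 18 arrays were tested, 14209 in all.

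Each gene was fitted with limma 3.58.1 (R 4.3.3) as a mean per group over 16 arrays, with 10 residual degrees of freedom, empirical Bayes variances and Benjamini-Hochberg adjustment. Both KBTBD8 shRNA arrays numbered 2 were left out because they lie with the other state. The titles share the numbers 1 and 3 between the groups compared, and the deviations of same-numbered arrays correlated by −0.131 and 0.0109. With only 2 KBTBD8 shRNA arrays their deviations mirror each other, so these values cannot decide on pairing. The numbers were not taken to pair samples, and a fit with a replicate block is given below. Every column of the table belonged to a labelled sample. The script was tested on simulated data.

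Genes were named by rule. KBTBD8 and the 5 markers always appear, with the 15 largest rises and falls past the threshold whose arrays did not overlap, members of the lists described, and the 5 largest interactions each way. The comparison, its members and the 37 gene lists were chosen with earlier results of these data known, so the lists are described by counts without tests of their own. Alternatives changed the arrays, the groups fitted, a replicate block, the normalization, the filter, the variance model and the choice of probe set, and left out each of the 5 arrays. Plots used Python 3.11.15 with matplotlib 3.10.9 and pandas 2.3.3.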

Additional observations from a re-analysis of the deposited data

Results flagged for a closer look

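For the knockdown the interaction between treatment and state was the test of whether embryoid bodies and pluripotent cells differed, and 1402 genes passed it. The 32 named genes were chosen for large differences in embryoid bodies or large interactions, so that all of them passed follows largely from the choice. Each value here is the log2 difference in embryoid bodies minus that in pluripotent cells. Among the markers it was −2.43 for SNAI2, −2.87 for ETS1, −3.00 for NPR3, 3.27 for SIX3 and 1.16 for ETV5. Among the other large rises it was 2.75 for DLX5, 2.35 for HPGD, 1.82 for ADAM28, 2.58 for SLITRK1, 2.01 for MECOM, 2.49 for FZD5 and 1.89 for FRZB. The forebrain genes gave 2.34 for HESX1, 1.69 for LHX2, 1.43 for FEZF1 and 1.88 for VAX1, with PAX8 at 1.86 and DUSP6 at 1.58. Among the large falls it was −2.44 for SCUBE2, −2.48 for MEF2C, −2.40 for NR2F1, −2.13 for PRELP, −2.63 for ITGA4, −3.08 for NRIP3, −1.88 for NOS2, −2.32 for SCRG1 and −1.90 for RFX4.

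The yolk sac genes fell in pluripotent cells too, AFP by 0.75, APOA2 by 1.21 and TTR by 1.35, with interactions of −2.04, −1.46 and −1.25. With the KBTBD8 shRNA the mean level was 5.37 in embryoid bodies and 5.27 in pluripotent cells for TTR, and 5.53 and 5.73 for APOA2. Both are low readings, so the interactions follow the control shRNA levels, 7.97 and 6.62 for TTR and 8.20 and 6.93 for APOA2. TXNIP (−4.03) and ARRDC4 (−2.99) had negative interactions with rises in pluripotent cells of 3.53 and 2.43. KBTBD8 itself had an interaction of 1.80 (adjusted p = 0.0049 in the limma fit), but on none of the 5 embryoid body arrays compared did it exceed the filter level, so the value says nothing of the knockdown there. Each group of arrays in the fit had 2 or 3 members, too few for a check of single outlying arrays gene by gene. Whole arrays were compared with the group means by correlation, as described above.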

How the results depend on the processing

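With all 18 arrays as labelled, 352 genes passed in embryoid bodies in place of 824, 521 interactions in place of 1402, 17 of the 30 named genes and 57 list members, and 792 of the 824 kept their direction. In that setting the signs of DACH1 (−0.54), EYA1 (−0.14), ZIC1 (−0.17), VWF (−0.0239), ARRDC4 (0.12), SLC7A11 (0.0462), FOXA2 (−0.00687), SOX17 (−0.00296) and of the interactions of SIX3 (−0.0398) and DLX5 (−0.73) turned, as that fit holds an array of the other state in each KBTBD8 shRNA group. With the check array in place of the left-out one 1184 genes passed, 780 of them shared with the 824, and KBTBD8 (−0.0648), TCOF1 (−0.0417) and NOLC1 (−0.0739), none of them called, changed sign. KBTBD8 was also −0.00845 after quantile normalization, which gave 971 genes. With a replicate block 762 genes passed, 711 shared. The 2 groups alone gave 858, the 3 embryoid body groups 928, no filter 744, a stricter filter 751 of 9211 tested, a trended robust variance 911 and the median of probe sets 822. The 4 transduced groups gave 967, and the filter counted over the 16 arrays of the fit gave 821, 820 of them shared, both added after seeing the data. Leaving out 1 of the 5 arrays gave 451 to 619 genes, 877 to 1211 interactions, 85 to 111 list members, and differences of −0.15 to 0.15 for KBTBD8 and −0.19 to 0.28 for FOXA2, with fewer arrays in each fit. The 30 named genes and the 5 markers passed wherever tested in these settings, except in the fit of all 18 arrays as labelled. The stricter filter and the filter over 16 arrays each left 28 of the 30 to test. The 30 genes, the 5 markers among them, were chosen for large differences on these same arrays. That they passed again therefore follows largely from the choice.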

Other observations

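Adhesion and guidance receptor families were looked at after the values had been seen, so their counts are descriptions. Over all genes tested 2.84% rose and 2.96% fell. Of 12 tested integrin alpha subunits, which bind cells to matrix, 3 fell, ITGA4, ITGA8 (−1.43) and ITGA9 (−1.25), and ITGA3 rose by 0.54. ITGA8 lay at the 22.4 and 23.3 percentiles on the KBTBD8 shRNA arrays, a level not shown to be above background. ITGA8 passed the filter only on the control shRNA arrays, so it had to differ. ITGA9 read 5.49 and 5.63 with the KBTBD8 shRNA against 6.85, 6.77 and 6.80 with the control shRNA. Of 4 tested GDNF family co-receptors, used by enteric and sympathetic crest, 3 fell, GFRA2 by 1.21, GFRA3 by 0.81 and GFRA1 by 0.75. Of 4 tested genes of the L1 and NCAM family 3 fell, L1CAM by 1.11, NRCAM by 1.11 and NCAM1 by 1.05. The median difference was 0.092 in the integrins, −0.778 in the GDNF co-receptors and −1.082 in the L1 and NCAM family.

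Neuropilins and plexins, the receptors of semaphorins, held 2 falls in 11 tested. NRP2, a receptor that in mouse guides migrating crest, read 7.17 and 7.26 with the KBTBD8 shRNA against 9.09, 9.10 and 9.08 with the control shRNA (−1.88 ± 0.22, limma adjusted p = 3.7e-05), and NRP1 fell by 0.59. Of the 16 tested semaphorins themselves 5 rose, led by SEMA6D (1.49) and SEMA3E (1.08), and 1 fell. The median was −0.177 in neuropilins and plexins and 0.117 in semaphorins. SEMA6D read 8.37 and 8.33 against 6.86, 6.83 and 6.87. Small nucleolar RNAs, which guide the modification of ribosomal RNA, fell in 4 of 46 (8.7%) of the H/ACA class and 1 of 58 (1.72%) of the C/D class, beside 2.96% of all genes tested, with SNORA24 at −1.18. The medians of these classes were −0.14 and −0.16, beside 0.00418 over all genes tested.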
